A study of Mus musculus with 17 samples.

Results

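The Map3k kinases examined here were Map3k1, Map3k5, Map3k7, Map3k8 and Map3k14, and the data were the accessible regions assigned to them by ATAC-seq, an assay in which a transposase inserts sequencing adapters into open chromatin. A region was taken when either gene symbol that the deposited table gives it, that of the nearest transcript or that of the nearest transcription start, was 1 of these 5 genes. This gave 78 of the 66177 regions in the table: 18 for Map3k1, 23 for Map3k5, 15 for Map3k7, 14 for Map3k8 and 8 for Map3k14. For 8 of the 78, only 1 of the symbols was a Map3k gene. In these the other symbol was Mier3 (beside Map3k1), Map7 (beside Map3k5) or Bach2 (beside Map3k7).

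The study compared 3 cell types, naive B cells (nB), B cells of the germinal center (GCB) and plasma cells of the bone marrow (BMPC), from mice with and without Dnmt3a and Dnmt3b, the enzymes of de novo DNA methylation, in B cells. All mice carried loxP-flanked Dnmt3a and Dnmt3b on both alleles, on the background B6;129S4-Dnmt3atm3.1Enl Dnmt3btm5.1Enl/Mmnc as the labels give it (the study's methods name the Dnmt3a allele Dnmt3atm3.2Enl), and were 8 to 12 weeks old at the start. Dnmt3-deficient mice (KO) also carried a Cre recombinase expressed in B cells, so that deletion was limited to these cells and their progeny, and Dnmt3-sufficient mice (C) carried no Cre. The nB (B220+ Fas- GL7-) came from lymph nodes of unimmunized male mice, with 3 C and 2 KO libraries of 1 mouse each. The phycoerythrin-specific GCB (B220+ Fas+ GL7+ PE+) came from lymph nodes 30 days after immunization with phycoerythrin, with 2 C and 4 KO libraries of 2 pooled mice each, 1 C and 3 KO libraries being from females. The BMPC (CD138+) came from bone marrow of female mice 30 days after the same immunization, with 3 C and 2 KO libraries of 1 mouse each. A further KO BMPC library had no values in the deposited table and was not analysed here. The authors removed 1 library for its share of reads in peaks and do not name it. Cell type therefore cannot be told apart from immunization for nB against GCB or BMPC, or from tissue for BMPC against nB or GCB. For nB against BMPC it also cannot be told apart from sex. GCB came from both sexes, so that sex differs in part between GCB and the other cell types.

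MAP3 kinases stand at the head of the kinase cascades in which a MAP3K phosphorylates a MAP2K and the MAP2K a MAP kinase such as JNK or ERK. Map3k1 (MEKK1) carries a kinase and a ubiquitin ligase and acts below CD40, Map3k5 (ASK1) answers oxidative stress, and Map3k7 (TAK1) works with the TAB proteins below TRAF6 to activate both JNK and the IκB kinases. Map3k8 (Tpl2) is held by the Nfkb1 precursor protein and signals to ERK, while Map3k14 (NIK) is kept low by TRAF3 and drives processing of Nfkb2 below CD40 and the BAFF receptor.

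Libraries held 4104875 to 6079018 reads in regions for nB, 907959 to 2280954 for GCB and 5357687 to 8232313 for BMPC, so that 3 reads, taken as the detection floor, equaled 0.364 to 3.30 RPPM, reads per 1000000 reads in regions. Floors cover counting error only. Marker genes were checked at the region that held or lay nearest their start. Fcer2a had a mean of 42.4 RPPM in C nB and 1.20 in C BMPC, and Tnfrsf17 19.995 in C BMPC against 0.392 in C nB. Not all listed genes went this way. Irf4, a BMPC marker, had means of 57.4, 41.1 and 44.1 RPPM in C nB, GCB and BMPC. The nB marker Ms4a1 had 80.2, 85.7 and 13.4, so that it did not set nB apart from GCB. The summed level of 5 nB markers was 262 to 285 RPPM in nB, 122 to 170 in GCB and 83.6 to 90.3 in BMPC, and that of 5 BMPC markers was 211 to 228 in BMPC, 112 to 131 in GCB and 164 to 184 in nB. Of the GCB markers, Mybl1 had means of 65.2, 83.2 and 80.6 RPPM in C nB, GCB and BMPC and S1pr2 14.4, 26.2 and 39.3, while Fas had 15.3, 20.6 and 31.2 and Bcl6 53.8, 20.01 and 29.96, so that these 4 did not set GCB apart from BMPC. Of markers of other cells, 2 of 5 T cell genes had regions, summing to 2.63 to 4.90 in nB, 9.79 to 12.8 in GCB and 10.6 to 19.2 in BMPC, and 4 of 5 myeloid genes summed to 17.7 to 22.0, 10.8 to 21.9 and 9.12 to 14.05. For 2 of 3 erythroid genes these ranges were 47.6 to 60.2, 36.3 to 53.5 and 61.3 to 70.8. Of these T cell genes, Cd4 had means of 0.867, 11.3 and 15.9 RPPM in C nB, GCB and BMPC. Cd3e had 3.02, 0.660 and 0.538, and Cd3g, Cd8a and Thy1 had no region. Distances from the start were -5589 bp for the Cd4 region and -5367 bp for that of Cd3e. The myeloid regions of Mpo, Csf1r and Elane lay 14512, 2504 and -2234 bp from their starts, and that of Sdc1, a BMPC marker, 1223 bp. The part of other cells in the results was not tested. The positions of the deleted exons are not given in the sources used here, so genotype labels were not checked against the data.

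The 78 regions lay mostly away from promoters. By the table's annotation, 44 were intronic, 25 lay outside genes, 5 were promoters, 1 for each gene, and 4 were exonic. Promoters made up 6.41% of them and 21.7% of all regions, and their median width of 482 bp was near that of all regions (510 bp). Within a gene, regions are numbered along the chromosome, and distances are from the gene's start to the middle of the region, positive in the direction of transcription. On mm9, Map3k1 (chr13:112536643-112599191) runs on the minus strand, as does Map3k14 (chr11:103081078-103128715), while Map3k5 (chr10:19654332-19862556) and Map3k7 (chr4:32051082-32110441) run on the plus strand. Regions of Map3k7 reached from -770 to 163 kb, far beyond its 59.4 kb, and those of Map3k1 from -21.6 to 67.3 kb.

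Several of the regions described below were intronic elements, and the central 300 bases of 5 of these are shown from the plus strand of mm9. Capitals mark cores of motifs bound by B cell factors, E2A (CAGCTG or CACCTG) and PU.1 (GGAAGT), on either strand, so that CACCTG and GGAAGT also appear as CAGGTG and ACTTCC. Map3k1_4 (chr13:112562371-112562670, intron) and Map3k1_5 (chr13:112567539-112567838, intron) had higher values in KO than in C BMPC, a difference that the main test given below did not call. Map3k7_7 (chr4:32074263-32074562, intron) was open in GCB, and Map3k5_20 (chr10:19780395-19780694, intron) and Map3k14_5 (chr11:103119525-103119824, intron) were lower in BMPC than in nB and GCB.
Map3k1_4: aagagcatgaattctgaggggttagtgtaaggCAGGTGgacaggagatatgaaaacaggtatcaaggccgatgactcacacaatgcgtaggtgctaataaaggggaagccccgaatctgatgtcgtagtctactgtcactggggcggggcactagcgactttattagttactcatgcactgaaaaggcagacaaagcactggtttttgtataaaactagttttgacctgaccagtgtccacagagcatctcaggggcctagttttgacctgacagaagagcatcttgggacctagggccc
Map3k1_5: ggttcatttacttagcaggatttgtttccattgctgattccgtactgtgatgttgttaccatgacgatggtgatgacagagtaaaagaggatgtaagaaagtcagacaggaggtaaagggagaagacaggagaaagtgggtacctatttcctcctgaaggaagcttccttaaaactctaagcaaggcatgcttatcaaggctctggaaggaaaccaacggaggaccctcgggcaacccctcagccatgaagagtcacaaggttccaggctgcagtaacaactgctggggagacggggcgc
Map3k7_7: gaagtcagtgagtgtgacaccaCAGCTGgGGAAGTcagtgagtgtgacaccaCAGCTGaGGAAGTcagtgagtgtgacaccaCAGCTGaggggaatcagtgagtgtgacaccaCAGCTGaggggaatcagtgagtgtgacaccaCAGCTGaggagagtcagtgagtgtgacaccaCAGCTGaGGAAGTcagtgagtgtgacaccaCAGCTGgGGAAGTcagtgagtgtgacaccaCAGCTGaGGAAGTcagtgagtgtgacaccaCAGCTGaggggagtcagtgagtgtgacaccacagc
Map3k5_20: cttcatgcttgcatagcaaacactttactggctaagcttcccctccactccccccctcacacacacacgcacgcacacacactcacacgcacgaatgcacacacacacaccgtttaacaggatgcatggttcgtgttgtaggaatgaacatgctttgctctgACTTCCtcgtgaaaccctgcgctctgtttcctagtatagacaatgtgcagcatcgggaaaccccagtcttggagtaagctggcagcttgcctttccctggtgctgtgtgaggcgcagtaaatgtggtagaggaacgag
Map3k14_5: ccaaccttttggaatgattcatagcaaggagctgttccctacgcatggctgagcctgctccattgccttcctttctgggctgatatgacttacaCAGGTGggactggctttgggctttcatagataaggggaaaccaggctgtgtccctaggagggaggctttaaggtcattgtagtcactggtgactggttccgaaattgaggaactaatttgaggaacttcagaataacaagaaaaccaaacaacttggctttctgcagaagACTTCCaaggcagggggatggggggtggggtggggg

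The Map3k7_7 window was a tandem repeat: CAGCTG occurred 9 times at a spacing of 30 or 31 bases, with GGAAGT 1 base behind it in 5 of the copies, and the window held no CpG. Of the central 300-base windows of all 65893 regions on named chromosomes, 8 held 9 or more CAGCTG. At least 1 CAGCTG was found in 20.6% of all windows and in 14 of 64 Map3k windows (21.9%), CACCTG in 26.8% and 29.7%, and GGAAGT in 30.3% and 35.9%. The 64 leave out the 14 regions of Map3k8, whose sequence was not used here. An Oct-2 core (ATGCAAAT, 3.96% of all windows) and a PU.1-IRF composite (GGAA, 2 bases, GAAA, 5.70%) were also searched on both strands and occurred in none of the 5 windows shown. The Map3k1_5 window held none of the cores. CpG dinucleotides, the substrate of Dnmt3 enzymes, numbered 6 in the window of Map3k1_4, 6 in that of Map3k1_5, 11 in that of Map3k5_20 and 2 in that of Map3k14_5, beside a median of 5 over all windows. A match is a description of letters and not of binding.

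**Figure D1:**
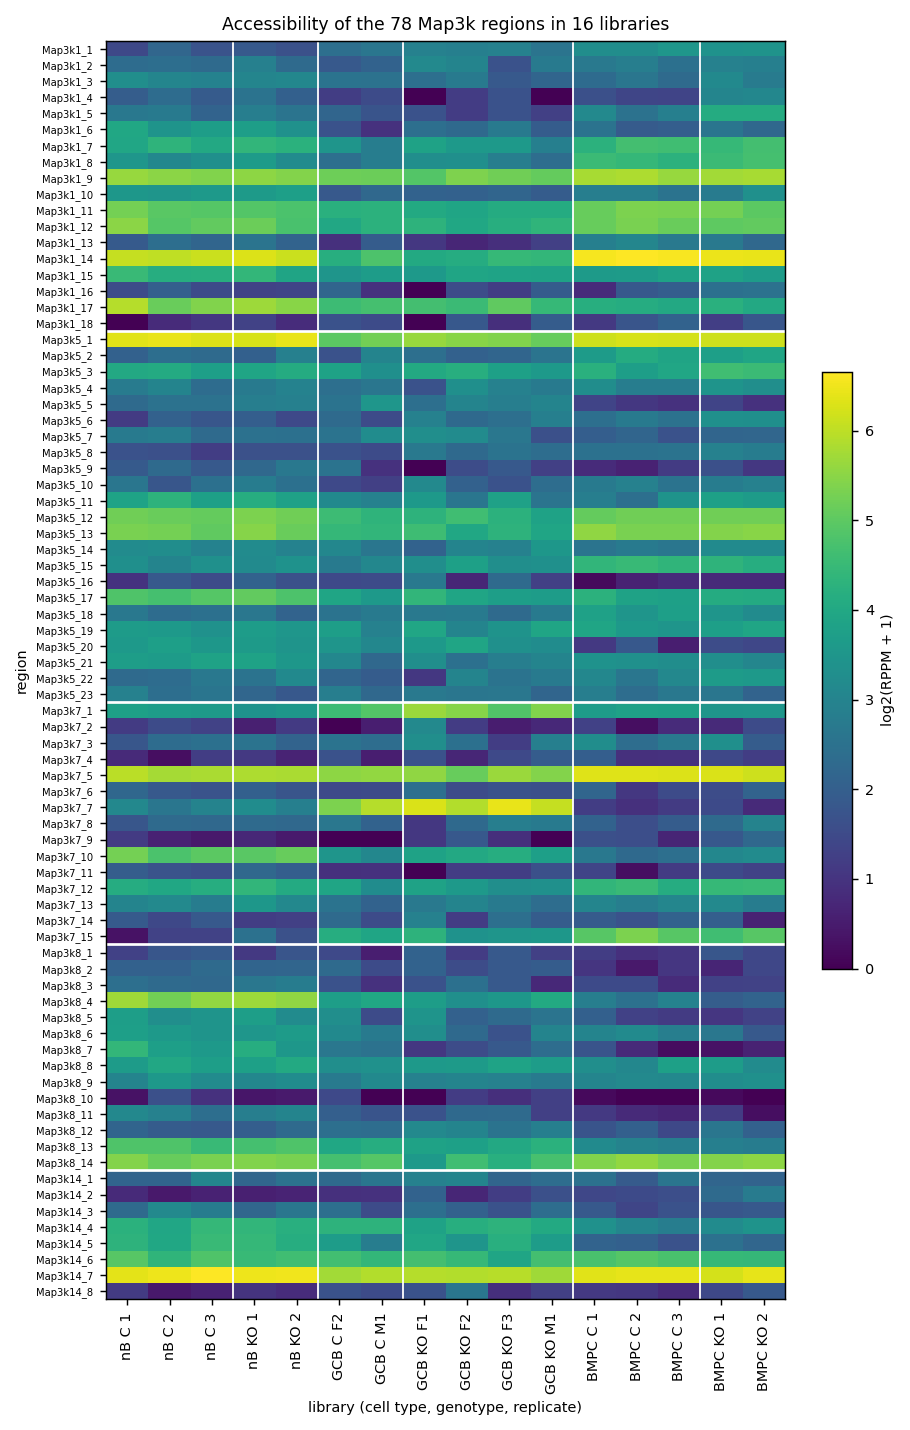
Accessibility, as log2(RPPM + 1), of the 78 Map3k regions (rows, by gene and position) in the 16 libraries (columns, by cell type, genotype and replicate), with white lines between genes and groups. The promoter row is the brightest of its gene in BMPC and, except for Map3k8, in nB, Map3k7_7 is bright in the 6 GCB libraries alone, and columns of C and KO of a cell type look alike for most rows.

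Accessibility of these genes differed between cell types. Of the 78 regions, 3 rose and 11 fell from C nB to C GCB, where 22.7% of all regions were called, 6 rose and 16 fell from C nB to C BMPC, where 38.1% were called, and 13 were higher and 8 lower in C BMPC than in C GCB, where 30.4% were called. The shares of Map3k regions called, 14, 22 and 21 of 78, were thus below or near those of all regions. Calls are by limma over all regions, with the adjusted p no higher than 0.01 and a change of 2-fold or more on log2(RPPM + 1). The median log2 fold change of the 78 was -0.45 for GCB minus nB in C, beside 0.05 over all regions, -0.13 beside 0.03 for BMPC minus nB, and 0.16 beside -0.06 for BMPC minus GCB. In KO the counts were 4 up and 13 down for GCB minus nB (26.3% of all regions called), 8 and 14 for BMPC minus nB (35.3%), and 13 and 10 for BMPC minus GCB (32.0%), the last becoming 16 and 7 with quantile normalization. These comparisons share libraries. In bulk samples, fewer cells with an open region and less accessibility per cell cannot be told apart.

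Summed over its 18 regions, Map3k1 in the C libraries had 318 ± 31.6 RPPM (SD, n = 3) for nB, 168 ± 9.72 (n = 2) for GCB and 340 ± 13.8 (n = 3) for BMPC. The C GCB libraries (161 to 175) lay below the other C libraries, while nB (298 to 355) and BMPC (332 to 356) overlapped. Map3k5 was also lowest in GCB, with 306 ± 14.4 RPPM in C nB, 191 ± 10.1 in C GCB and 299 ± 8.34 in C BMPC, nB and BMPC again overlapping. Map3k14 likewise had its lowest sum in GCB, at 116 ± 3.82, with 129 ± 1.47 in BMPC and 164 ± 17.3 in nB and no overlap between the groups. Map3k8 descended from 186 ± 15.7 in nB through 103 ± 4.09 in GCB to 89.3 ± 3.15 in BMPC, again with no overlap. Map3k7 alone was lowest in nB, with 148 ± 11.3 RPPM beside 176 ± 6.25 in GCB and 175 ± 7.19 in BMPC, and GCB and BMPC overlapped. In KO the sums were 321 ± 36.5, 171 ± 8.96 and 349 ± 2.80 for Map3k1 in nB, GCB and BMPC, for Map3k5 319 ± 8.93, 215 ± 21.2 and 326 ± 6.88, for Map3k7 153 ± 8.04, 220 ± 26.4 and 171 ± 3.30, for Map3k8 192 ± 3.34, 95.2 ± 7.45 and 86.9 ± 3.13, and for Map3k14 159 ± 0.380, 121 ± 5.28 and 126 ± 9.15. KO GCB had more at Map3k7 (194 to 256) than C GCB (172 to 181), and KO BMPC more at Map3k5 (321 to 331) than C BMPC (294 to 309), both without overlap, and no region of these genes was called there. Reads on the mitochondrial chromosome count in the RPPM total. They made up 7.43 to 10.1% of it in GCB libraries, 3.10 to 4.59% in nB and 2.56 to 3.12% in BMPC, and a larger share lowers the RPPM of all other regions. The sums, and the part of this share in them, were not tested.

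**Figure D2:**
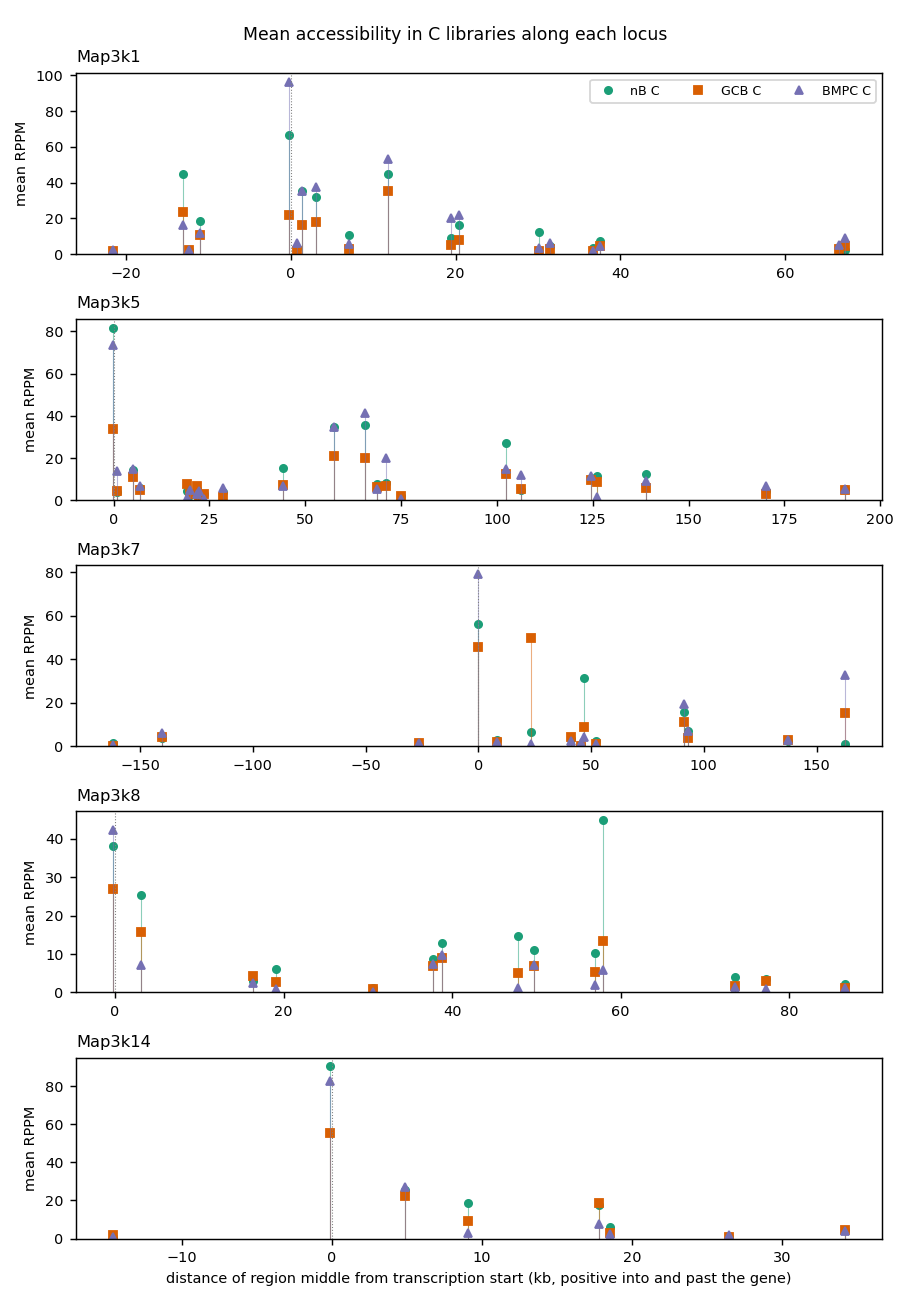
Mean RPPM in C libraries of nB (circles, n = 3), GCB (squares, n = 2) and BMPC (triangles, n = 3) for each region, placed by its distance in kb from the start of its gene (dotted line). Map3k7_1, at -770 kb, is not drawn. Map3k7_7 at 23.3 kb stands at 49.5 RPPM in GCB alone, and Map3k8_4 at 58.0 kb stands at 44.9 RPPM in nB.

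At the 5 promoters, GCB had the lowest accessibility, by a 2-fold change or more at Map3k1 and Map3k5. The Map3k1 promoter (Map3k1_14, chr13:112598607-112600209) measured 66.5, 64.1 and 68.7 RPPM in C nB, 17.2 and 26.7 in C GCB, and 94.2, 99.99 and 94.98 in C BMPC. The 3 groups did not overlap. The log2 fold change was -1.59 (SE 0.15, adjusted p 2.8e-09) for GCB minus nB, 2.12 (SE 0.15, adjusted p 6e-12) for BMPC minus GCB, and 0.53 (SE 0.13, adjusted p 0.0014) for BMPC minus nB, which was under 2-fold. KO libraries had the same order, with 77.8 and 69.3 RPPM in nB, 15.4, 16.5, 21.0 and 20.3 in GCB, and 86.6 and 84.9 in BMPC. The Map3k5 promoter (Map3k5_1, chr10:19653321-19654927) measured 80.9, 85.7 and 78.4 RPPM in C nB, 30.8 and 36.5 in C GCB, and 70.5, 75.5 and 74.1 in C BMPC. It fell from nB to GCB by 1.26 on the log2 scale (SE 0.13, adjusted p 9.77e-09) and was 1.11 higher in BMPC than in GCB (SE 0.13, adjusted p 4.77e-08). The latter was under the 2-fold limit without C GCB library F2 (0.99) and with quantile normalization (0.84). In KO the differences at Map3k5 were -0.94 and 0.75, both under 2-fold.

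At the other promoters, no difference in C reached 2-fold. The Map3k14 promoter (Map3k14_7, chr11:103128321-103129374) had 90.4 ± 7.72 RPPM in C nB, 55.4 ± 4.39 in C GCB and 82.9 ± 1.27 in C BMPC, where GCB minus nB was -0.69 on the log2 scale (SE 0.11, adjusted p 7.48e-06), under 2-fold. At the Map3k7 promoter (Map3k7_5, chr4:32050291-32051732), C BMPC had 79.1 ± 0.798 RPPM, C nB 56.2 ± 4.39 and C GCB 45.6 ± 1.07. The Map3k8 promoter had 38.2 ± 4.47 RPPM in C nB, 27.1 ± 2.81 in C GCB and 42.3 ± 4.04 in C BMPC, and its KO GCB libraries measured 11.01, 23.5, 17.5 and 25.2. For Map3k8, the drop from nB to GCB was called in KO (-1.07, SE 0.20, adjusted p 7.26e-05) and not in C (-0.48, SE 0.21, adjusted p 0.0674). Without the KO GCB library F1, the shallowest of the series, the KO value was -0.84, and with quantile normalization -0.94. BMPC minus GCB at this promoter was 1.19 in KO (SE 0.20, adjusted p 1.35e-05), or 0.96 and not called without F1, and 0.63 in C (SE 0.21, adjusted p 0.0146). Over all promoters of the table, the median log2 fold change in C was -0.18 for GCB minus nB and 0.30 for BMPC minus GCB.

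**Figure D3:**
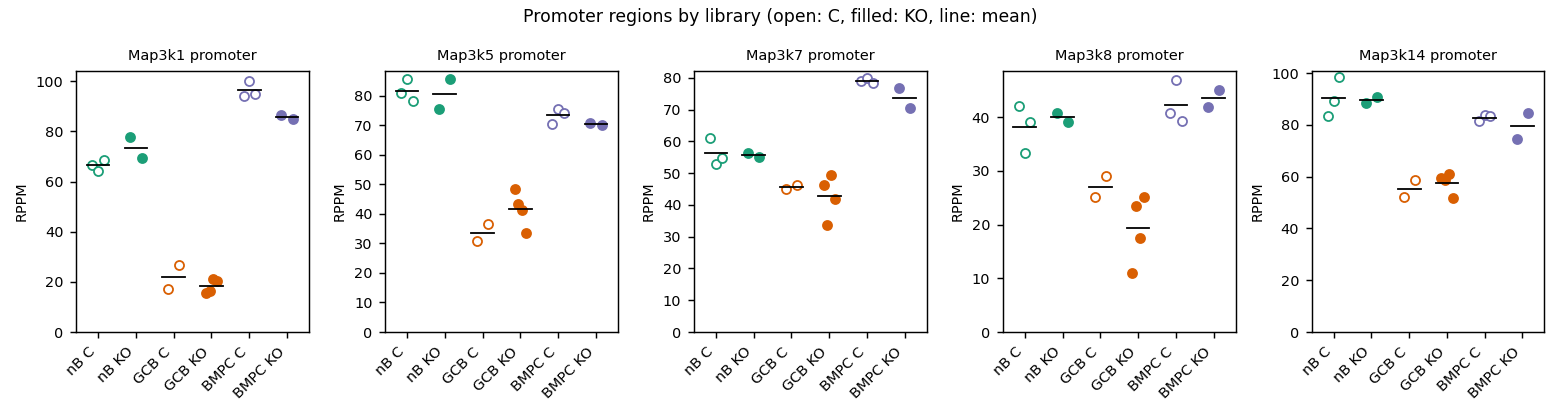
RPPM of the promoter region of each gene by library (points, open for C, filled for KO) with the group mean (line), in nB, GCB and BMPC, on axes that start at 0. GCB has the lowest group means at every promoter, from 17.2 to 26.7 RPPM at Map3k1 in C GCB against 94.2 to 99.99 in C BMPC.

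Inside Map3k1, elements moved in different directions. Of 18 regions, 4 fell from C nB to C GCB and none rose (22.7% of all regions called). From nB to BMPC 2 rose and 2 fell (38.1%), and 6 were higher and none lower in BMPC than in GCB (30.4%). The intron element Map3k1_6 (chr13:112568781-112569263) measured 14.6, 9.98 and 12.1 RPPM in C nB, 2.20 and 0.937 in C GCB, and 4.81, 2.74 and 2.96 in C BMPC. The nB libraries were all above the others, and the C GCB values rest on 5 and 2 reads, the second under the floor. It fell by 2.40 in GCB (SE 0.31, adjusted p 6.52e-07) and by 1.57 in BMPC (SE 0.28, adjusted p 2.57e-05) on the log2 scale. In KO GCB it measured 4.41, 3.82, 5.70 and 2.80 RPPM, a log2 difference of 1.03 from C (SE 0.30) that was not called (adjusted p 0.144).

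Map3k5, the longest of the genes, also held elements of both kinds. In C, 3 of its 23 regions fell from nB to GCB and none rose (22.7% of all regions called). From nB to BMPC 3 rose and 3 fell (38.1%), and 6 were higher and 2 lower in BMPC than in GCB (30.4%). The intron element Map3k5_20 (chr10:19780318-19780770), 126 kb into the gene and assigned to Map7 by nearest start, measured 11.2, 12.6 and 10.4 RPPM in C nB, 10.1 and 7.49 in C GCB, and 1.17, 2.55 and 0.467 in C BMPC. BMPC lay below both other cell types without overlap. The log2 fold change was -2.46 for BMPC minus nB (SE 0.28, adjusted p 1.44e-08) and -2.11 for BMPC minus GCB (SE 0.31, adjusted p 1.97e-06), and in KO -2.04 and -2.03. The Map3k5 region with the smallest p for KO minus C in BMPC, Map3k5_3 (chr10:19659127-19659581, intron), had 17.7, 12.2 and 14.5 RPPM in C and 23.6 and 22.2 in KO BMPC, a log2 difference of 0.61 (SE 0.22, adjusted p 0.243).

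Map3k7 held the largest differences between cell types of the 78 regions. The intron element Map3k7_7 (chr4:32073851-32074973), whose center is the repeat shown above, measured 7.55, 5.09 and 6.89 RPPM in C nB, 39.6 and 59.5 in C GCB, and 1.30, 0.912 and 1.25 in C BMPC. In KO it measured 8.39 and 6.30 RPPM in nB, 77.1, 57.9, 85.1 and 65.7 in GCB, and 1.82 and 0.747 in BMPC. Every GCB library lay above every nB library, and every nB library above every BMPC library. It rose by 2.74 on the log2 scale from C nB to C GCB (SE 0.25, adjusted p 1.8e-09), and BMPC minus GCB was -4.53 (SE 0.25, adjusted p 6.22e-14) and BMPC minus nB -1.79 (SE 0.23, adjusted p 1.26e-07). KO minus C in GCB was 0.53 (SE 0.24, adjusted p 0.383). The number of repeat copies in these mice was not measured, and reads within a repeat can map to more than 1 copy.

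A pair of Map3k7 elements had other patterns. The intron element Map3k7_10 (chr4:32097741-32098533), the Map3k7 region with the smallest p for KO minus C in BMPC, was an nB element with 37.5, 26.6 and 30.7 RPPM in C nB, 10.1 and 7.49 in C GCB, and 5.33, 3.83 and 4.36 in C BMPC. It fell by 1.73 in GCB (SE 0.21, adjusted p 2.15e-07) and by 2.56 in BMPC (SE 0.19, adjusted p 5.26e-12) on the log2 scale. KO BMPC measured 7.53 and 8.21 RPPM, above the C libraries, and the log2 difference of 0.70 was not called (SE 0.21, adjusted p 0.136). Map3k7_15 (chr4:32213362-32214356), chosen after its values were seen, lies outside genes 163 kb from the Map3k7 start and is assigned by nearest start to Bach2, which encodes a repressor of plasma cell differentiation. It measured 0.244, 1.51 and 1.49 RPPM in C nB, 16.7 and 14.1 in C GCB, and 29.5, 39.6 and 29.3 in C BMPC, 3 groups without overlap. The C nB values rest on 1, 8 and 8 reads. It rose by 3.04 from nB to GCB (SE 0.31, adjusted p 8.68e-09) and by 4.08 from nB to BMPC (SE 0.28, adjusted p 8.55e-13) on the log2 scale. The difference of 1.04 between BMPC and GCB lost its call without either C GCB library (1.15 without F2 and 0.92 without M1) or any 1 C BMPC library (0.90 to 1.11).

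Map3k8 lost accessibility outside its promoter. In C, 2 of its 14 regions fell from nB to GCB (22.7% of all regions called) and 6 from nB to BMPC (38.1%). In BMPC 3 were lower than in GCB (30.4%), and none rose in these comparisons. Map3k8_4 (chr18:4294463-4295537), outside genes 58.0 kb from the start and beyond the end of the gene, measured 50.9, 36.7 and 47.1 RPPM in C nB, 12.3 and 14.5 in C GCB, and 6.24, 4.56 and 6.70 in C BMPC. The 3 groups did not overlap. It fell by 1.66 to GCB (SE 0.22, adjusted p 8.53e-07) and by 2.75 to BMPC (SE 0.20, adjusted p 3.21e-12) on the log2 scale. This was also the Map3k8 region with the smallest p for KO minus C in BMPC, with 2.92 and 3.36 RPPM in KO, below all C libraries, and a log2 difference of -0.71 (SE 0.22, adjusted p 0.147). Map3k8_7 (chr18:4304807-4305438), also beyond the gene, measured 20.2, 12.6 and 10.98 RPPM in C nB, 5.28 and 4.68 in C GCB, and 2.34, 0.730 and 0.156 in C BMPC, the last from 1 read. It fell by 3.01 from nB to BMPC (SE 0.36, adjusted p 4.58e-08).

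Map3k14 had the fewest regions, 8, of which 1 fell from C nB to C GCB (22.7% of all regions called). From C nB to C BMPC 3 fell (38.1%), and none rose in either comparison. The intron element Map3k14_5 (chr11:103119365-103119983), 9.04 kb into the gene, measured 18.8, 14.7 and 22.0 RPPM in C nB, 11.9 and 6.09 in C GCB, and 3.38, 3.10 and 2.18 in C BMPC. The groups descended in that order without overlap. It fell by 2.32 from nB to BMPC (SE 0.24, adjusted p 4.6e-09). The fall of 1.01 from nB to GCB (SE 0.27, adjusted p 0.00375) was not called without C nB libraries 1 (-0.99) or 3 (-0.88) or C GCB library M1 (-0.58). In BMPC, the region of Map3k14 with the smallest p for KO minus C was the exonic Map3k14_2 (chr11:103102010-103102527), at 1.69, 1.82 and 2.02 RPPM in C and 3.89 and 5.79 in KO, a log2 difference of 1.02 (SE 0.37, adjusted p 0.267). In nB it measured 0.731, 0.377 and 0.558 RPPM in C and 0.494 and 0.590 in KO, from 2 or 3 reads each, at or under the floor, and its change from nB is not given.

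Genotype made smaller differences than cell type. By limma none of the 78 regions was called for KO minus C in nB, where 0% of all regions were called, in GCB, where 0.0317% (21 regions) were called, or in BMPC, where 0.104% (69 regions) were called. At an unadjusted p under 0.05 by limma there were 2 of the 78 Map3k regions in nB, 14 in GCB and 9 in BMPC. Over all regions the shares at that p were 1.67%, 11.8% and 9.55%. The median log2 difference of the 78 was 0.06, 0.09 and 0.07 in nB, GCB and BMPC, beside -0.01, 0.03 and 0.03 over all regions. Of the 9 regions in BMPC, 1 had an adjusted p of at most 0.05. On the reads recovered from the RPPM values, edgeR's likelihood ratio and quasi-likelihood tests and DESeq2 each called the same 2 of 78 regions in BMPC. In nB and GCB they called none of the 78. Of all 66177 regions they called 1677, 1201 and 494 in BMPC. By the likelihood ratio test, 2 of 78 was thus near the share over all regions.

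These 2 regions were the intron elements Map3k1_4 and Map3k1_5 of Map3k1, and both had more accessibility in KO BMPC. Map3k1_5 (chr13:112567371-112568005), 31.5 kb into the gene, measured 7.80, 4.74 and 6.38 RPPM in C BMPC, from 60, 26 and 41 reads, and 16.2 and 16.1 in KO BMPC, from 133 and 86 reads. In the other cells it measured 3.35 to 6.25 RPPM in nB and 1.27 to 3.52 in GCB, so that both KO BMPC libraries lay above the other 14 libraries. The log2 difference of KO minus C in BMPC was 1.25 (SE 0.30) with an adjusted p of 0.0476 by limma, over the limit of 0.01. The adjusted p was 1.32e-06 by edgeR's likelihood ratio test, 7.59e-05 by its quasi-likelihood test and 0.00264 by DESeq2. By limma it ranged from 0.0414 to 0.458 when 1 BMPC library was left out, with log2 differences of 1.09 to 1.39.

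Map3k1_4 (chr13:112562324-112562716), chosen after its values were seen, lies 36.7 kb into the gene. It measured 2.08, 1.64 and 1.56 RPPM in C BMPC, from 16, 9 and 10 reads, and 7.17 and 7.47 in KO BMPC, from 59 and 40 reads. In nB it measured 2.79 to 4.77 RPPM, and of the KO GCB libraries 2 held no read, which allows up to 3.30 and 2.10 RPPM. The KO BMPC libraries were again above the other 14. The log2 difference was 1.60 (SE 0.41, adjusted p 0.0613) by limma and 1.95 by edgeR's likelihood ratio test (adjusted p 2.25e-07), and DESeq2 gave an adjusted p of 0.00129. With a pseudocount of 5 RPPM the adjusted p by limma was 0.00505 for Map3k1_4 and 0.00481 for Map3k1_5, at log2 differences of 0.87 and 0.91, under the 2-fold limit. Between cell types, Map3k1_5 rose from nB to BMPC in KO (1.38, SE 0.33, adjusted p 0.00101) and not by the test in C (0.34, SE 0.27, adjusted p 0.3). That rise was not called without KO nB library 2 (1.24) or either KO BMPC library (1.38 and 1.39). The difference between the changes in KO and C, 1.04 (SE 0.43), had an adjusted p of 0.812. The promoter of Map3k1 had 86.6 and 84.9 RPPM in KO BMPC and 94.2 to 99.99 in C BMPC, a log2 difference of -0.17 (SE 0.15, adjusted p 0.913).

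**Figure D4:**
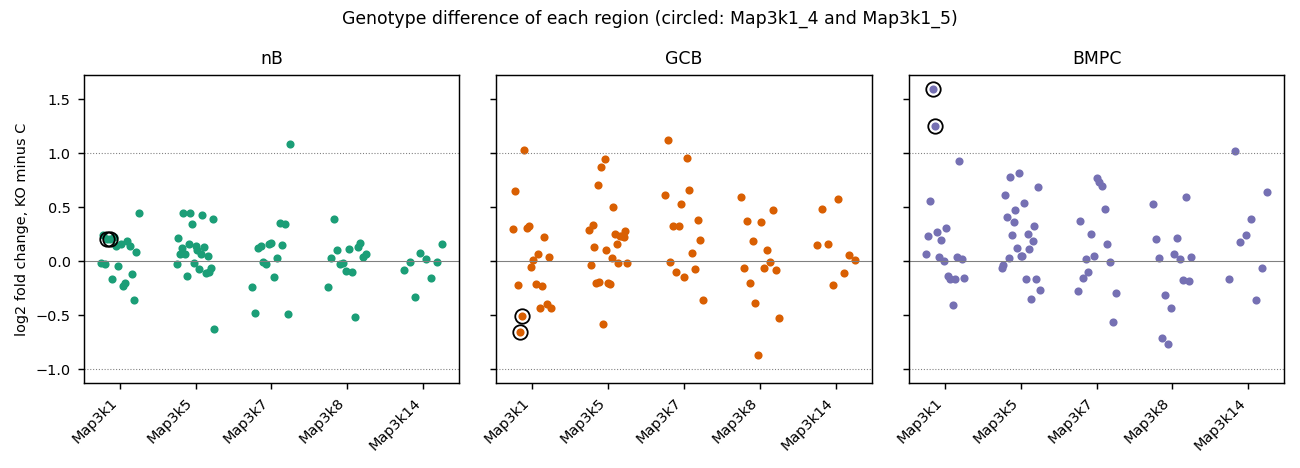
Log2 fold change of KO minus C (vertical axis, limma on log2(RPPM + 1)) for each of the 78 regions by gene in nB, GCB and BMPC, with Map3k1_4 and Map3k1_5 circled and dotted lines at a 2-fold change. In BMPC the circled regions stand highest, at 1.60 and 1.25, while in nB they lie near 0 and in GCB below it.

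Whether the genotype difference itself changed with cell type was tested as an interaction. Limma called none of the 78 regions for BMPC against nB or BMPC against GCB, with 5 at an unadjusted p under 0.05 in each. For BMPC against GCB, Map3k1_4 gave 2.25 (SE 0.57, adjusted p 0.17) and Map3k1_5 1.76 (SE 0.42, adjusted p 0.155). EdgeR's likelihood ratio test called 1, Map3k7_15, for BMPC against nB (-1.97, adjusted p 0.00627), where limma gave -1.38 (SE 0.44, adjusted p 0.548), edgeR's quasi-likelihood test an adjusted p of 0.0390 and DESeq2 0.0615. For BMPC against GCB these 3 count tests called none, and DESeq2 gave no adjusted p for Map3k1_4 and Map3k1_5 there. At Map3k7_15 the KO nB libraries measured 4.61 and 2.16 RPPM, above the C nB libraries, with a log2 difference of 1.09 (SE 0.31, adjusted p 1).

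**Figure D5:**
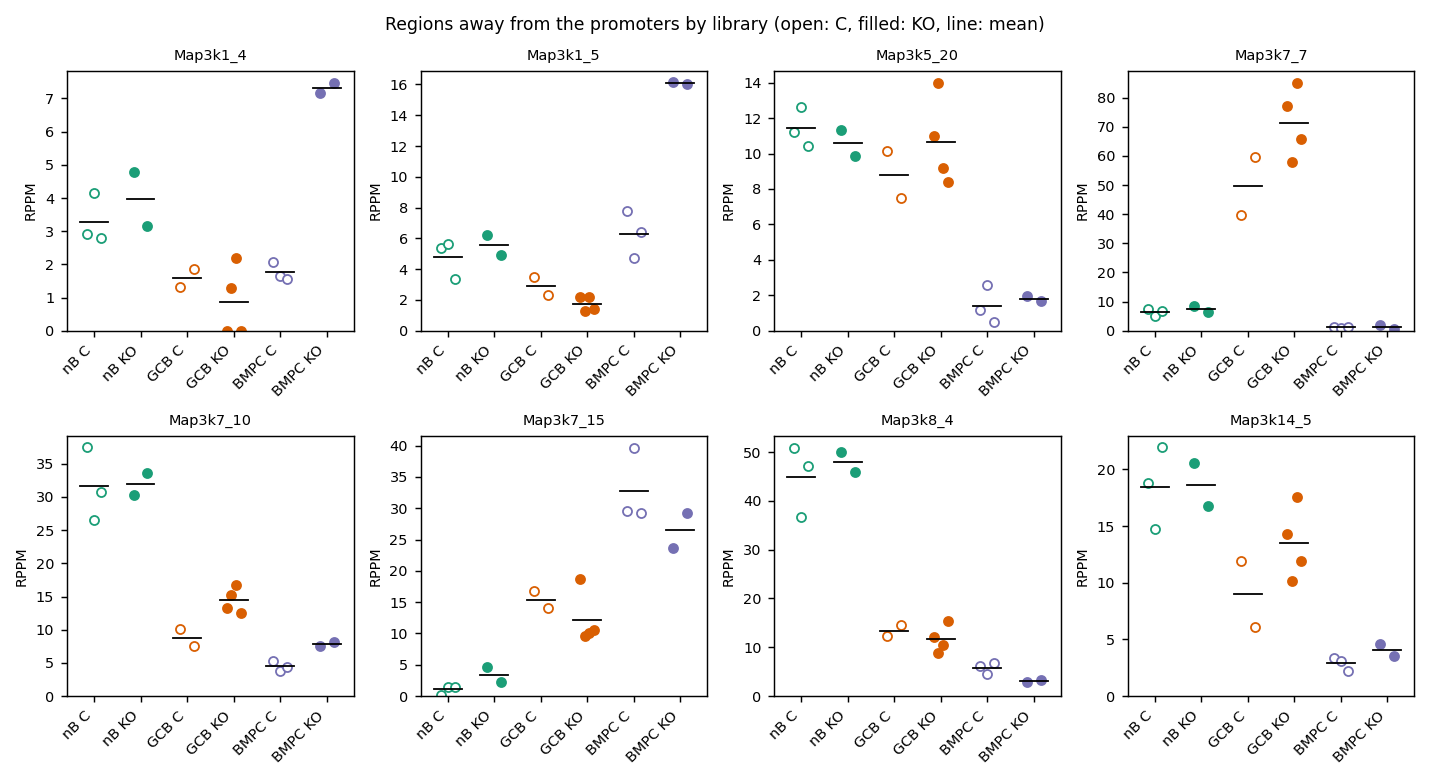
RPPM by library (points, open for C, filled for KO) with the group mean (line) for 8 regions away from the promoters, on axes that start at 0. Both KO BMPC libraries lie above all others at Map3k1_4 (7.17 and 7.47) and Map3k1_5 (16.2 and 16.1), Map3k7_7 is high in GCB, Map3k7_15 in BMPC, and Map3k7_10, Map3k8_4 and Map3k14_5 have their highest means in nB.

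The genes around these kinases were counted by the same fit, in which 9427 of all 66177 regions rose and 5602 fell from C nB to C GCB (22.7% called), 11897 rose and 13330 fell from C nB to C BMPC (38.1%), and 7474 were higher and 12636 lower in C BMPC than in C GCB (30.4%). The 18 other MAP3K genes had 95 regions, of which 15 rose and 5 fell from C nB to C GCB and 22 rose and 10 fell from C nB to C BMPC. Of 39 regions at 7 MAP2K genes, 10 rose and none fell from nB to GCB, and 4 were higher and 12 lower in BMPC than in GCB. The 10 MAPK genes had 36 regions, with 4 up and 4 down in GCB and 4 up and 6 down in BMPC, each against nB. Partners and activators such as Traf3 and Cd40 had 79 regions, with 6 up and 12 down in GCB and 10 up and 17 down in BMPC. For this list 12 of 15 symbols were found, the 15 counting both older and newer symbols of Tab1, Tab2 and Tab3. For 9 genes of the IκB kinases and NF-κB, 7 of 69 regions rose and 12 fell in GCB, and 8 rose and 25 fell in BMPC. The median log2 fold change for BMPC minus nB in C was -0.28 in this last list, 0.19 for the other MAP3K genes and 0.09 for MAP2K, beside 0.03 over all regions.

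For KO minus C, limma called no region of these lists in any cell type. In BMPC, 6 of 95, 4 of 39, 4 of 36, 9 of 79 and 15 of 69 regions of the lists had an unadjusted p under 0.05, in the order other MAP3K, MAP2K, MAPK, partners and NF-κB, beside 9.55% of all regions. DESeq2 called 2 of them, both in Nfkb1, whose product holds Map3k8: chr3:135279477-135280164 had means of 2.97 RPPM in C and 9.28 in KO BMPC (log2 difference 1.58, adjusted p 0.000102), and chr3:135273237-135273656 had 1.24 and 4.74 (1.88, adjusted p 0.00189). Both tests of edgeR called these as well. A region of Traf2 (chr2:25397479-25397959), an adaptor that restrains Map3k14, had 12.9 RPPM in C and 6.06 in KO BMPC and was called by both edgeR tests (-1.16, adjusted p 0.00159 by quasi-likelihood). A region of Birc3 (chr9:7868054-7868377), a ubiquitin ligase of the same complex, was called by both in nB, with 20.1 RPPM in C and 9.03 in KO (-1.13, adjusted p 0.00686 by quasi-likelihood), where they called 10 (likelihood ratio) and 7 (quasi-likelihood) of all regions. The likelihood ratio test alone called regions of Map3k11, Traf3 and Map2k5, each higher in KO BMPC. In GCB none of the 3 count tests called a region of these lists, and limma gave 12, 3, 6, 11 and 10 at an unadjusted p under 0.05, in the order above, beside 11.8% of all regions. In nB limma gave 2, 0, 1, 2 and 0 at that p, beside 1.67% of all regions, and Birc3 was the only region called by any of the 3 count tests.

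Other genes followed the sums of these kinases across the 16 libraries. Among 8476 genes with 3 or more regions, the sum of Map3k1 was most like that of Trim8 (Pearson r 0.987), Glod4 (0.985) and Raver1 (0.984). Map3k5 was most like Zbtb7b (0.977), Prdm1, the plasma cell transcription factor Blimp-1 (0.975), and Stk24 (0.972). The nearest patterns were Pdss2 (0.907), Ctsd (0.902) and Zfp931 (0.895) for Map3k7, Plek (0.984), Timm8a2 (0.984) and Plekho1 (0.981) for Map3k8, and Zbtb9 (0.949), Akr1d1 (0.948) and Gorasp2 (0.946) for Map3k14. These values describe log2 sums over libraries that cluster by cell type and share depth and scaling.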

How the data were processed

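ATAC-seq reads were mapped to mm9 with Bowtie by the authors, who called peaks in each sample with MACS2 at a q of 0.01, merged them, and deposited for each region its reads per 1000000 reads in all regions of the library (RPPM, an RPM value). The study's methods and the processing notes of the submitters give different Bowtie versions. The table also holds the authors' fold changes and p-values for their comparisons, which were not used. The number of further per-sample columns left unused was 0. The value of 1 read was recovered from each library's smallest step, and 100% of values were whole reads within 0.01.

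All 66177 regions were fitted on log2(RPPM + 1) by limma 3.58.1 (R 4.3.3), using a variance trend, a mean for each of 6 groups and Benjamini-Hochberg adjustment over all regions. The limits for a call, 0.01 for the adjusted p and 2 for the fold change, were those the study used with edgeR. The fit was tested on simulated data. Fold changes on this scale understate those of low regions, and since the sources used here name no molecular identifiers, reads may be PCR copies. Per the labels, each library was of 1 mouse or 1 pool, and p-values measure the spread between these libraries.

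The fit was repeated with a pseudocount of 0.1 or 5 RPPM, with a mean RPPM of 1 or more required, with quantile normalization, edgeR 4.0.16 (likelihood ratio and quasi-likelihood tests) and DESeq2 1.42.0 on recovered reads, each library left out, and a replicate block on GCB pool names. Regions were named as each gene's promoter, its smallest p for KO minus C in BMPC and its largest change between cell types in C, with any called between genotypes. Genes, lists and rules were chosen with earlier results of these data known. Sequences were read from NCBIM37 (mm9) with pysam 0.24.0, and plots were drawn with matplotlib 3.10.9. Some allele and marker details are not reported here.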

Additional observations from a re-analysis of the deposited data

Results flagged for a closer look

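Map3k7_15 in KO GCB was flagged because 1 of 4 libraries stood apart, F1 at 18.7 RPPM (17 reads) beside 9.55, 10.1 and 10.5 RPPM in the others. F1 was the shallowest library, with 907959 reads in regions. The check covered 17 regions in KO GCB, the only group of 4 or more libraries, and chance flags about 1 in 20 groups.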

How the results depend on the processing

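For KO minus C, no alternative called a Map3k region in nB or GCB, and in BMPC the count was 0 by every limma setting and 2 by edgeR's likelihood ratio test, by its quasi-likelihood test and by DESeq2. For the interaction of BMPC against nB, edgeR's likelihood ratio test called 1 and the other settings 0. With a pseudocount of 5 RPPM the counts between cell types fell to 7, 11 and 8 in C (GCB minus nB, BMPC minus nB, BMPC minus GCB) from 14, 22 and 21, and to 7, 10 and 12 in KO from 17, 22 and 23. That pseudocount shrinks fold changes of low regions by construction. With each library left out in turn, counts ranged from 9 to 14, 20 to 23 and 15 to 19 in C and from 10 to 20, 16 to 18 and 16 to 25 in KO. The lowest, 9 and 10, came without C GCB library M1 and KO nB library 1. Other settings gave 7 to 16, 11 to 30, 8 to 27, 7 to 25, 10 to 29 and 12 to 27. Quantile normalization moved the median of all regions for GCB minus nB from 0.05 to -0.06 in C and from 0.12 to -0.07 in KO. Of 763 values of named regions under alternatives, 684 kept direction and call, 73 kept direction and lost the call, 6 gained it and none changed direction. Pools of GCB named F2 and M1 exist for C and for KO, and the deviations of same-named pools correlated at 0.0363 and 0.0638, so no pairing was assumed. With the replicate block on these names the fit of KO minus C in GCB called 0 Map3k regions, with 2 at an unadjusted p under 0.05. GCB depth limits low regions, since 3 reads there equal 1.32 to 3.30 RPPM. Over all regions, KO minus C in BMPC had 69 calls, 1 without either KO BMPC library, 114, 11 and 15 without C BMPC libraries 1, 2 and 3, 14 with quantile normalization, and among the count tests 1677 (likelihood ratio), 1201 (quasi-likelihood) and 494 (DESeq2). In GCB the 21 calls became 61 without C library F2, 1 without C library M1, 5 with a pseudocount of 5 RPPM, 9 with the replicate block, and 12, 1 and 0 by those count tests. The cause of these changes was not tested.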

Other observations

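The repeat at Map3k7_7 led to a look at the other regions whose central 300 bases hold 9 or more CAGCTG, chosen after the values were seen. Of these 8 regions, 5 had their highest C mean in GCB, among them Map3k7_7, which had led to the look. The share of all regions with their highest C mean in GCB was not counted. A region at Dyrk1a (chr16:94919942-94920895) with 10 copies had means of 2.27 RPPM in C nB, 31.7 in C GCB and 10.2 in C BMPC, and a region at Gm7550 (chr12:55427539-55428049) with 10 copies had 0.244, 18.2 and 0.746. Regions at Pkib and Cenpj differed less, with 2.00, 4.32 and 3.12 RPPM and 0.519, 2.99 and 1.98 RPPM in the same order. The other 3 were highest in C BMPC, at 2.55 to 5.73 RPPM. These values were not tested.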
